A study of Mus musculus with 8 samples.

Results

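The small proline-rich genes Sprr1a, Sprr1b, Sprr2a3, Sprr2d, Sprr2f, Sprr2h and Sprr3 and the late cornification genes Crct1, Cnfn and Lce3c were followed in single-cell RNA sequencing of mouse tongue epithelium. These 10 genes, of 32285 features in the matrices, were picked by symbol because earlier results on the same libraries had singled them out, so their levels and differences are given as description and carry no p-value. They were read in epithelial cells, taken as cells in which Krt5, Krt14, Krt15, Krt13 and Krt6a together made up at least 0.5% of unique molecular identifiers (UMIs, each standing for 1 captured transcript) and in which the leukocyte gene Ptprc had 0 UMIs. In all 12957 cells qualified.

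All animals carried Krt14-CreERT and LSL-rtTA, in which tamoxifen-activated Cre in Krt14-expressing basal cells switches on rtTA, which in turn drives tetON transgenes under doxycycline. N mice carried no effector transgene, E mice carried tetON_E6-E7 (human papillomavirus oncogenes), Y mice carried tetON_YAP1S127A (a constitutively active YAP1), and EY mice carried both. By the study's methods a tetON_H2B-GFP reporter was also present in every group, the mice were littermates of 8 to 16 weeks in sex-balanced groups, 3 doses of tamoxifen were injected into the tongue, and tissue was taken at day 15. Each group had 2 libraries, numbered in deposit order within the group (N1, N2 and so on; the numbers pair nothing), and values listed for the N and E or the Y and EY libraries follow these numbers. In the title of N2 stands more than 1 animal number, so that animals may have been pooled there.

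Epithelial cells numbered 170 (EY1) to 4055 (E1) per library and 2454816 to 55154619 UMIs, with a median of 12575 to 23570 UMIs per cell. The 5 keratins that define them summed to 19570 to 23702 counts per 1000000 UMIs (CPM) with every one detected in each library, and Yap1 stood at 32.8 to 47.8 CPM in the N and E libraries against 166 to 452 CPM in the Y and EY libraries, the order the genotypes give. EY1 stood apart, with 170 cells under the upper limits on genes and UMIs and 481 without them. Libraries shared 2 to 19 cell barcodes, at most 0.393% of the smaller library. Markers of other cells moved with the groups in these epithelial cells, and values without the cells that hold immune or gland and duct markers are given beside the results. The part of fibroblast markers was not tested. Cells left out for an immune marker were those with a UMI of Cd3d, Cd3e, Cd3g, Trac, S100a8, S100a9, Csf3r, C1qa, Csf1r, Lyz2, Cd207 or Cd74. S100a8 was at 3528 and 15850 CPM in T cells (defined below) of EY1 and EY2. The origin of the UMIs that removed a cell was not tested. The 5 neutrophil markers summed to 4.56 to 37.9 CPM in the 4 libraries without the YAP transgene and to 41.8 to 2200 CPM in the 4 with it, the 5 fibroblast markers to 725 to 1227 and 28.3 to 805 CPM, and the 5 gland and duct markers to 92.3 to 883 and 6.41 to 72.1 CPM. Cells left out below for a gland or duct marker were those with a UMI of Wfdc18, Msln or Psca. The other gland and duct markers, Ltf (342 CPM in N2) and Muc5b, did not remove a cell. Nearly all of the fibroblast sum was Dcn alone (1099 CPM in N1, 805 in Y1, 27.0 in EY2). Col1a1, Col1a2, Col3a1 and Pdgfra were each at no more than 2.79 CPM in any library.

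Cornified cells at the surface of a stratified epithelium replace their plasma membrane with an envelope of cross-linked protein. Small proline-rich (SPRR) proteins act as bridges in that envelope, late cornified envelope (LCE) proteins are added near its completion, and transglutaminases join them. In the tongue these genes are known from the differentiated upper layers and the papillae, and SPRR genes are also known to respond to stress and injury in several epithelia.

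Of the 10 genes, 9 lie within 730 kb of the epidermal differentiation complex on chromosome 3 (GRCm38, 92285417 to 93015687), the cluster that holds most envelope genes, and Cnfn lies alone on chromosome 7 (25367620 to 25369724, minus strand). Sprr2a3, Sprr2d, Sprr2f and Sprr2h are neighbours on the plus strand, followed by Sprr1b, Sprr3 and Sprr1a on the minus strand, and Lce3c and Crct1 lie further along. The 250 bases before the annotated start were available for 9 of the 10 genes in the RefSeq set for GRCm38.p6; Crct1 was not in it. They are shown for the 6 genes that held a match to the AP-1 motif TGANTCA or the TEAD motif GGAATG, searched on both strands and not overlapping each other, because TEAD factors are the DNA-binding partners of YAP and AP-1 factors are known regulators of SPRR genes. Each is written 5′ to 3′ on the gene's strand with the matches in capitals: Sprr2d at chr3:92338890-92339139 (plus), Sprr2f at chr3:92364937-92365186 (plus), Sprr2h at chr3:92385435-92385684 (plus), Sprr1a at chr3:92485882-92486131 (minus), Sprr1b at chr3:92438780-92439029 (minus) and Sprr3 at chr3:92458721-92458970 (minus).
Sprr2d: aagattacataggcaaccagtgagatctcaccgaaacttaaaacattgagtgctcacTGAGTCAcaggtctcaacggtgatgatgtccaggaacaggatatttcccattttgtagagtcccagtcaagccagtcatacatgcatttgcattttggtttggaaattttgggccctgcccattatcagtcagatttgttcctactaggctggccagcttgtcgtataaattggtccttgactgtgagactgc
Sprr2f: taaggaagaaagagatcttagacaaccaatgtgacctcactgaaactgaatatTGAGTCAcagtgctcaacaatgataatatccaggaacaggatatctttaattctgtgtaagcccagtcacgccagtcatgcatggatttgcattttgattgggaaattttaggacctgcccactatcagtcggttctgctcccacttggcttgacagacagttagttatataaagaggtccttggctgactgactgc
Sprr2h: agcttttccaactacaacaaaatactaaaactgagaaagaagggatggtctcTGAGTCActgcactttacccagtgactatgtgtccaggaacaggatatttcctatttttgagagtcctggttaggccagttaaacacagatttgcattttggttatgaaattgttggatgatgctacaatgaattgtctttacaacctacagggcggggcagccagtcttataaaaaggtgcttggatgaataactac
Sprr1a: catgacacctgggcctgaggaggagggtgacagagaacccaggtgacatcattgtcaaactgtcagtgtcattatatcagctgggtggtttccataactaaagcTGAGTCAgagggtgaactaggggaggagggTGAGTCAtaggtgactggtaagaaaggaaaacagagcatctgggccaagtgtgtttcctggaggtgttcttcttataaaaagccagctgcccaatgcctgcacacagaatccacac
Sprr1b: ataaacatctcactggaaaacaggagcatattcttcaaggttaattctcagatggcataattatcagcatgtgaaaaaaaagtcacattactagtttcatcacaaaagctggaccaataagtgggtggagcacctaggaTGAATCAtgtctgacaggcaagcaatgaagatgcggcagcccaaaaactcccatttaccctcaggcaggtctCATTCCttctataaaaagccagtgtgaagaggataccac
Sprr3: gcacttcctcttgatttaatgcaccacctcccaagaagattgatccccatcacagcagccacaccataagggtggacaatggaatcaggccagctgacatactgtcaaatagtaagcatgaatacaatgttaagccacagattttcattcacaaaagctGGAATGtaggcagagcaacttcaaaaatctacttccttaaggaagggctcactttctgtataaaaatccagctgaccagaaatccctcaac

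TGANTCA was found before 5 of the 9 genes and before 6.75% of 32851 RefSeq starts. In Sprr2d, Sprr2f and Sprr2h it began 193, 197 and 198 bases before the start and read TGAGTCA each time; Sprr1a held it at 146 and 116 bases and Sprr1b once at 111 bases. GGAATG was found before 2 of the 9, at 39 bases in Sprr1b (on the opposite strand) and at 91 bases in Sprr3, against 12.6% of all starts. TATAAA, searched on the gene's strand, was present in 6 of the 9, 29 bases before the start in each of Sprr2d, Sprr2f and Sprr2h, against 7.59% of all starts. AACNGGTT, the motif of the grainyhead-like factors, was found before none of the 9 and before 1.79% of all starts. The windows of Sprr2d, Sprr2f and Sprr2h were the most alike of the 9 when aligned with gaps. Of 250 bases, 187 were identical between Sprr2d and Sprr2f, 173 between Sprr2d and Sprr2h and 167 between Sprr2f and Sprr2h. The next pair, Sprr1b with Sprr3, had 163, and the least alike, Cnfn with Sprr2h, had 132. A match describes these letters in this window and is not a binding site.

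Crct1, which encodes a cysteine-rich protein of the late envelope, stood at 1.02 and 8.0 CPM in N, 1.87 and 37.4 in E, 262 and 1071 in Y, and 430 and 539 in EY. The 4 libraries with the YAP transgene all lay above the 4 without, and the groups averaged 4.51 ± 4.94 (N), 19.6 ± 25.1 (E), 667 ± 572 (Y) and 484 ± 77.1 CPM (EY; SD, n = 2 each). Averaged over E6-E7 status, the difference with the YAP transgene was 5.97 ± 1.21 on the log2 scale (edgeR estimate ± SE). The values of Crct1 in N2 and E2 came from few cells. In N2 a single cell held 85.7% of its 70 UMIs, and in E2 a single cell held 76.6% of its 453 UMIs. Without cells holding an immune marker UMI, Crct1 in Y1 was at 44.4 CPM (100 cells), below E2 at 53.1 CPM, while Y2 and EY2 stood at 1101 and 449.9 CPM.

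Cnfn encodes cornifelin, a small envelope protein. It was at 6.88 and 64.4 CPM in N, 15.2 and 65.3 in E, 127 and 340 in Y, and 172 and 366 in EY. Every library with the YAP transgene again lay above every library without it, with a log2 difference of 2.78 ± 0.75. N2 and E2 were high beside N1 and E1, and in N2 80.3% of Cnfn UMIs lay in the 16.6% of cells that held a gland or duct marker UMI. With such cells left out, N2 fell from 64.4 to 15.2 CPM and the log2 difference was 3.55. Without cells holding an immune marker UMI, Y1 was at 18.1 CPM, below N2 at 45.8 CPM and E2 at 44.2 CPM.

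Lce3c belongs to the late cornified envelope family. It was at 0.161 and 0.686 CPM in N, 0.780 and 21.6 in E, 22.0 and 16.9 in Y, and 11.4 and 10.4 in EY. It was the 1 gene of the 10 whose libraries with and without the YAP transgene overlapped, through E2, where 1 cell held 230 of 261 UMIs (88.1%). Its log2 difference with the YAP transgene was 2.43 ± 1.47 with all libraries and 4.92 without E2. Lce3c also shares sequence with its neighbours: 39.6% of the 75-base windows in the last 400 bases of its transcripts occur in Lce3a, Lce3b, Lce3d, Lce3e or Lce3f, so reads there cannot be assigned and its count is uncertain.

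Sprr1a and Sprr1b encode the SPRR1 cross-bridging proteins. Sprr1a varied least, at 37.9 and 39.1 CPM in N, 34.9 and 44.7 in E, 46.8 and 51.0 in Y, and 81.9 and 49.5 in EY, a log2 difference of 0.56 ± 0.18 that changed sign when keratins of at least 2% of UMIs were required (-0.23) and when cells with an immune marker UMI were left out (-0.37). Sprr1b was at 5.10 and 14.5 CPM in N, 18.1 and 24.5 in E, 26.0 and 32.0 in Y, and 55.8 and 72.9 in EY, with a log2 difference of 1.65 ± 0.31. Sprr1b was the gene whose 4 groups came closest to a graded order, with no overlap between any neighbouring groups (the highest N library at 14.5, the lowest E at 18.1, the highest E at 24.5, the lowest Y at 26.0, the highest Y at 32.0 and the lowest EY at 55.8 CPM). That order held only with cells holding a gland or duct marker UMI included: without them Sprr1b was at 5.19 and 17.4 CPM in N, 19.5 and 25.5 in E, 15.8 and 21.9 in Y, and 62.3 and 66.2 in EY, with Y1 below N2.

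The 4 SPRR2 genes encode smaller proteins of the same kind. Sprr2a3 was present in every library, at 26.2 and 17.3 CPM in N, 10.5 and 0.578 in E, 26.9 and 115 in Y, and 174 and 112 in EY, with a log2 difference of 3.14 ± 0.93. The lowest library with the YAP transgene, Y1, lay barely above the highest without it, N1. Of the 75-base windows in its last 400 bases, 57.1% also occur in Sprr2a1 or Sprr2a2, so its count is uncertain in the same way as that of Lce3c.

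Sprr2d was nearly absent without the YAP transgene: its UMIs numbered 2 and 0 in N and 22 and 0 in E, against 199 and 286 in Y and 15 and 766 in EY. As levels these are 0.0401, 0, 0.399 and 0 CPM against 8.27, 14.5, 6.11 and 20.7 CPM. From the 2 UMIs in N the ratio to N was 325 for Y (95% exact interval 89.4 to 2689) and 579 for EY (160 to 4793), intervals that cover counting error only. These ratios hold only for the limits on cells used here. With a minimum of 200 genes per cell N1 and N2 had 35 and 1 UMIs (0.700 and 0.110 CPM). Y1 and Y2 were then at 9.26 and 16.7 CPM. Without upper limits on genes and UMIs N1 and N2 had 15 and 7 UMIs. Sprr2f followed the same order, at 0.401 and 0 CPM in N, 0.363 and 0.0826 in E, 6.44 and 29.6 in Y, and 4.89 and 49.5 in EY. Its log2 difference with the YAP transgene was 6.32 ± 0.93, and the EY libraries lay far apart. Sprr2h was at 0.502 and 0.457 CPM in N, 0.743 and 6.53 in E, 8.18 and 16.1 in Y, and 11.4 and 21.6 in EY, with a log2 difference of 3.38 ± 0.75. The 6.53 CPM in E2 rested on 1 cell that held 73 of 79 UMIs.

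Sprr3, an SPRR gene known as a marker of oral and esophageal surface cells, was at 0.181 and 0 CPM in N, 0.761 and 0.330 in E, 6.73 and 21.0 in Y, and 4.07 and 5.27 in EY. Its log2 difference was 4.54 ± 0.80. Both Y libraries lay above both EY libraries, but Y1 at 6.73 CPM was close to EY2 at 5.27 CPM.

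**Figure D1:**
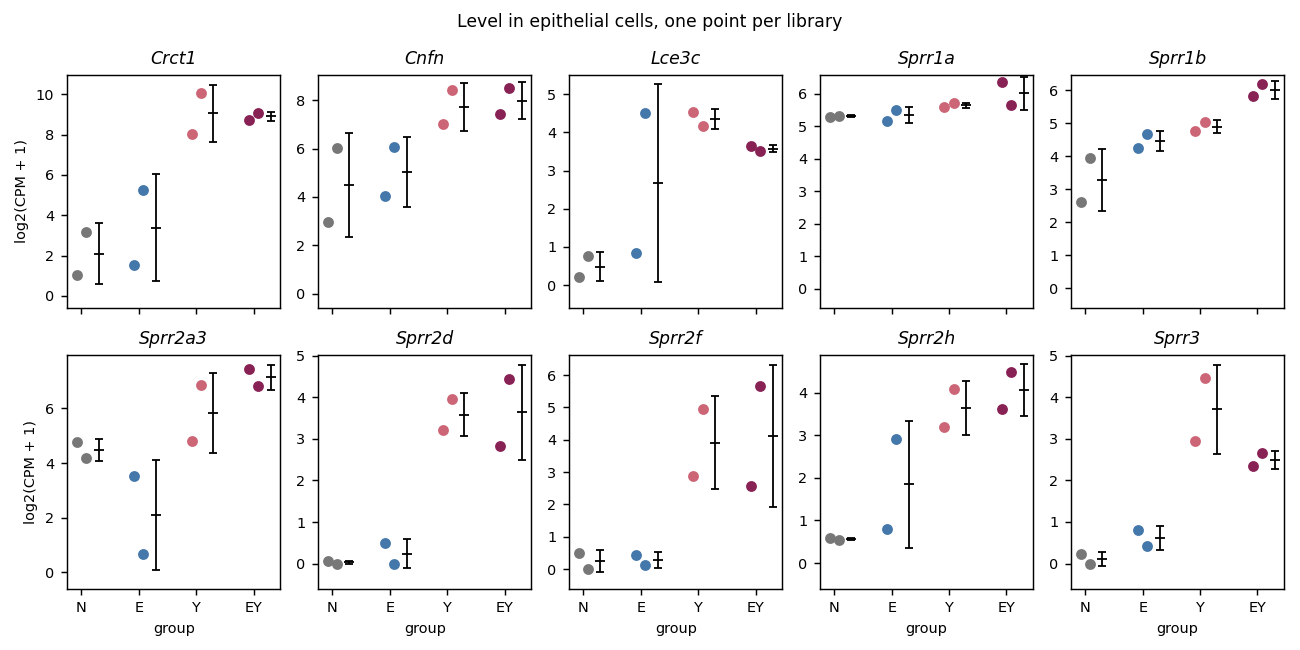
Level of each of the 10 genes in epithelial cells as log2(CPM + 1), one point per library, for groups N, E, Y and EY; the black dash and bar are the mean and SD of the 2 libraries on that scale. In 9 panels the Y and EY points lie above all N and E points, and in Lce3c the E2 point lies among them.

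Counted together, 9 of the 10 genes had all 4 libraries with the YAP transgene above all 4 without, beside 8.13% of the 13555 genes tested. The count depended on the cells used. It was 8 without upper limits on genes and UMIs (17.3% of all genes). It was 6 without cells holding a gland or duct marker UMI (8.32%, with Lce3c, Sprr1a, Sprr1b and Sprr2h overlapping). It was 3 without cells holding an immune marker UMI (6.95%, with Sprr2d, Sprr2f and Sprr3 apart). In that last set EY1 had none of its 170 cells left, EY2 had 80 of 2027 and Y1 had 100 of 1289. Whether this removed other cell types or part of the epithelial cells was not tested. Among all epithelial cells none of the 10 had all 4 E6-E7 libraries above the other 4, beside 2.6%. The YAP difference was called higher (edgeR quasi-likelihood test, Benjamini-Hochberg adjusted p under 0.05) for 6 of the 10, Crct1, Sprr1b, Sprr2d, Sprr2f, Sprr2h and Sprr3, beside 5.26% of all genes. Because the genes were chosen on these libraries, nothing is read from either count. The median log2 difference of the 10 was 3.26, beside -0.03 over all genes tested.

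The comparisons with N share the same 2 control libraries, so their values stand side by side. The log2 differences from N in Y and in EY were 7.42 ± 1.72 and 7.0 ± 1.70 for Crct1, 2.70 ± 1.12 and 2.96 ± 1.13 for Cnfn, 6.12 ± 1.61 and 5.30 ± 1.63 for Lce3c, 0.33 ± 0.23 and 0.76 ± 0.23 for Sprr1a, and 1.61 ± 0.47 and 2.81 ± 0.49 for Sprr1b. For the others they were 1.68 ± 0.95 and 2.71 ± 0.99 (Sprr2a3), 5.83 ± 1.36 and 6.61 ± 1.38 (Sprr2f), 4.61 ± 1.05 and 5.17 ± 1.07 (Sprr2h), and 6.54 ± 0.83 and 5.09 ± 0.84 (Sprr3). Of the 10, Sprr2d and Sprr3 were called in Y against N (0.384% of all genes higher), and Crct1, Sprr1b, Sprr2d, Sprr2f, Sprr2h and Sprr3 in EY against N (9.31% higher). The genes were chosen on these libraries, so nothing is read from these calls or from those on the 10 genes below.

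E6-E7 alone gave smaller values than Y or EY, with errors of similar size, but for Lce3c the value was close to the 5.30 of EY. Against N, E differed by 2.23 ± 1.48 for Crct1, 0.09 ± 1.07 for Cnfn, 5.20 ± 1.61 for Lce3c, 1.10 ± 0.47 for Sprr1b, -1.91 ± 0.98 for Sprr2a3, -0.15 ± 1.61 for Sprr2f, 2.68 ± 1.06 for Sprr2h and 2.01 ± 0.89 for Sprr3 on the log2 scale, and none of the 10 was called (0.236% of all genes higher). For Sprr1a and Sprr2d the differences were -0.03 ± 0.23 and 2.89 ± 1.46. Without E2 the Crct1 value was -1.11, so 1 library set its sign. Of the 261 Lce3c UMIs in E2, 230 lay in 1 cell. EY differed from Y by -1.46 ± 0.61 (Sprr3) to 1.20 ± 0.45 (Sprr1b), and none of the 10 was called, beside 0.0221% of all genes called in each direction. Averaged over the YAP transgene, the E6-E7 difference was called for none of the 10 (0.406% of all genes higher). The interaction of the transgenes was called for none of the 13555 genes (0%) by edgeR, with 1562 at an unadjusted p under 0.05 and 89 called by DESeq2.

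**Figure D2:**
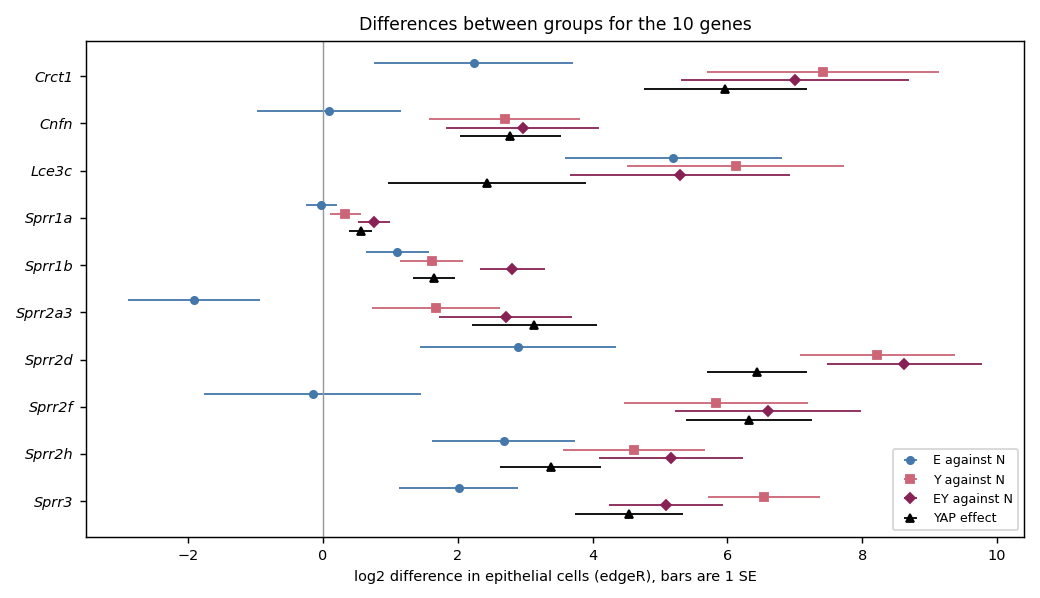
Log2 differences for the 10 genes in E, Y and EY against N and for the YAP transgene averaged over E6-E7 status, with bars of 1 SE; the vertical line is no difference. Sprr1a stays within 1 log2 unit of 0 in every comparison, and the fitted values of Sprr2d depend on 2 UMIs in N.

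Within the epithelium the genes could be placed by keratin. Cells with more Krt13 and Krt4 UMIs, keratins of suprabasal tongue cells, numbered 16 (EY1) to 444 (E1) per library, and the rest held more Krt5, Krt14 and Krt15 UMIs, keratins of basal cells. Of the 80 pairs of gene and library, 68 had the higher level in the Krt13 and Krt4 class. Some of the genes were found in the basal-keratin class without the YAP transgene too. In N1 and N2 that class held Sprr1a at 18.2 and 39.1, Sprr2a3 at 9.32 and 18.1 and Cnfn at 4.58 and 5.26 CPM. Sprr2d, by contrast, was at 0.0477 and 0 CPM there. Crct1 in the basal-keratin class was at 0.739, 0.837, 0.635 and 7.51 CPM across the N and E libraries and at 156, 755, 342 and 483 CPM across the Y and EY libraries. In the Krt13 and Krt4 class it was at 2.54, 163, 9.23 and 471 CPM and at 1083, 2904, 1883 and 1797 CPM. The values of N2 and E2 in that class came from 31 and 51 cells.

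In the basal-keratin class 9 of the 10 genes had all 4 libraries with the YAP transgene above the other 4 (8.17% of all genes), and Sprr1a was the exception. Sprr1b there was at 1.93 to 10.2 CPM without and 19.8 to 64.9 CPM with the transgene, and Sprr2f at 0 to 0.0883 and 2.86 to 46.2 CPM. In the Krt13 and Krt4 class, with far fewer cells, 3 of the 10 did so (4.59% of all genes). Which class held a gene's UMIs also differed between libraries: 75.1% of Cnfn UMIs in E2 and 92.2% in N2 lay in the Krt13 and Krt4 class, against 18.6% in EY2. These were the extremes, and N1, E1, Y1, Y2 and EY1 were at 44.0%, 49.9%, 61.5%, 50.9% and 44.4%. In EY2 that class was also a small part of the cells (4.39%, against 7.47% in N2 and 9.22% in E2). The 5 gland and duct markers summed in that class to 12532 CPM in N2 and 2986 CPM in E2. They summed to 256 CPM in N1, 192 CPM in E1 and 14.0 to 441 CPM with the YAP transgene. The class in N2 and E2 thus held gland or duct transcripts besides suprabasal keratins, and their part in these shares was not tested.

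**Figure D3:**
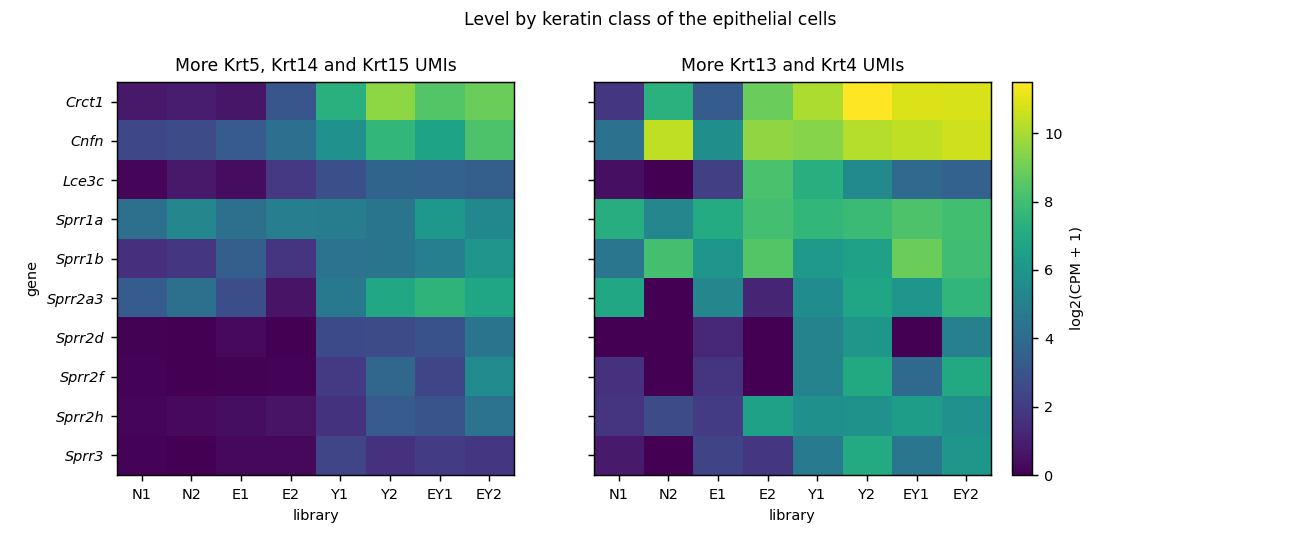
Heat maps of log2(CPM + 1) for the 10 genes (rows) in the 8 libraries (columns), for cells with more Krt5, Krt14 and Krt15 UMIs (left) and cells with more Krt13 and Krt4 UMIs (right). In the left panel 9 rows, all but Sprr1a, are brighter in every Y and EY column than in any N or E column, and the right panel is brighter than the left in most cells.

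The cells nearest the keratin limit held the genes most densely. Summed over the 8 libraries, the 10 genes were at 5175 CPM in the 47 cells with keratins of 0.4% to 0.5% of UMIs, just outside the limit, at 2858 CPM in the 51 cells with 0.5% to 0.6%, just inside it, and at 506 CPM in the other 12906. Cells with few of these 5 keratins thus lie outside the values above.

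Transcripts of the 10 genes were also found in T cells, which are not known to make envelope proteins. T cells were taken as cells with at least 2 UMIs of Cd3d, Cd3e and Cd3g, at least 1 of Ptprc and keratins under 0.5% of UMIs, 203 to 2090 per library (5184 in all). Crct1 was at 0, 0.568, 0 and 0.915 CPM in T cells of the N and E libraries and at 26.4, 68.6, 18.05 and 55.3 CPM in those of the Y and EY libraries. T cells of every library with the YAP transgene thus held more Crct1 than those of any library without it, and 5 of the 10 genes had this separation there, beside 2.77% of all genes. Lce3c, Sprr2d, Sprr2f, Sprr2h and Sprr3 had no UMI in T cells of any N or E library, which at 3 UMIs allows up to 0.549 (E2) to 2.59 CPM (E1).

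The 10 genes summed to 1.73% (E2) to 17.6% (E1) of their epithelial CPM in T cells, with a median over libraries of 8.26%. The same ratio for 8 epithelial reference genes (Sfn, Perp, Dsp, Lgals7, Ly6d, Fxyd3, Dmkn and Aqp3) was 2.01% to 7.96%, and that for Krt5, Krt14 and Krt15 0.987% to 6.53%. The 8 are outside the 10 and the listed other envelope genes but are not independent of differentiation. In every library their sum was higher in the Krt13 and Krt4 class than over all epithelial cells (20749 against 13718 CPM in N1). From the reference ratio 617 UMIs of the 10 genes would lie in T cells over the 8 libraries, and 1549 were counted, 2.51 times as many. In Y1 the excess was 933 counted against 235. These T cells were limited to keratins under 0.5% of UMIs, and the excess depended on that limit: without it the ratio was 1.67 over the 8 libraries, the 10 genes lay above the reference in 4 libraries in place of 6, and counted over expected fell to 0.501 in N1 and 0.752 in Y2. Subtracting the T-cell CPM of each library from its epithelial CPM gave a log2 difference with the YAP transgene of 5.92 for Crct1 in place of 5.97, and of 3.15 for Sprr2h, the gene that moved most, in place of 3.38.

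**Figure D4:**
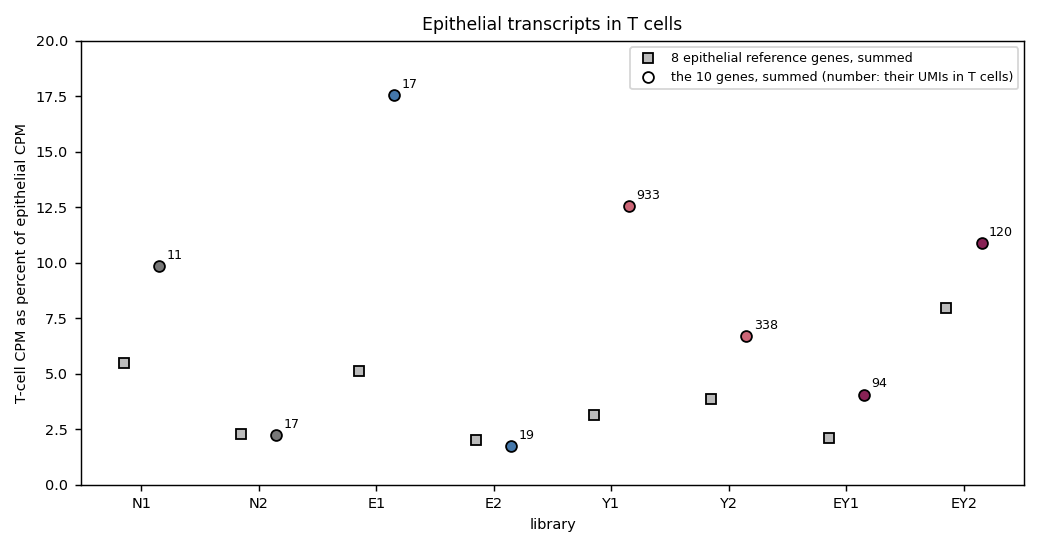
T-cell CPM as a percent of epithelial CPM in each library, for the sum of 8 epithelial reference genes (grey squares) and for the sum of the 10 envelope genes (circles, with their UMIs in T cells written beside). The circle lies above the square in 6 of the 8 libraries, most of all in E1 with 17 UMIs and Y1 with 933 UMIs, and the E2 circle lies below. Without the keratin limit on T cells the 10 genes lie above the reference in 4 libraries.

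Shares of cells were compared after thinning every cell to 2000 UMIs, which left out at most 2 epithelial cells and 15 T cells of any library. Median depth before thinning was 12575 to 23570 UMIs in epithelial cells and 2979 to 7933 in T cells. At least 1 UMI of the 10 genes was held by 3.37% and 5.30% of epithelial cells in N, 3.80% and 4.70% in E, 12.6% and 27.1% in Y, and 43.8% and 36.3% in EY (unthinned 8.67% to 9.88% and 44.3% to 74.6%). In T cells the shares were 0.651% to 1.30% without the YAP transgene and 13.7% and 19.4% in Y and 8.28% and 31.2% in EY. In Y1 the epithelial share (95% exact interval 10.8% to 14.5%) was not above the T-cell share (12.3% to 15.3%). The share therefore does not set epithelial cells apart from T cells in Y1, and what part of it is background was not tested. The level did differ there: the 10 genes summed to 541 CPM in epithelial cells and 67.8 CPM in T cells of Y1. In EY2 the intervals of the shares met (34.2% to 38.4% in epithelial cells against 24.9% to 38.1% in T cells). In Y2 and EY1 the epithelial share lay above the T-cell share.

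Crct1 alone was held by 6.68%, 18.7%, 27.8% and 22.0% of epithelial cells across the Y and EY libraries and by 5.65%, 11.6%, 3.79% and 14.9% of T cells. The abundance thus separates epithelial from T cells more than the share of cells does, since single cells carried up to 1078 Crct1 UMIs (Y2). The top decile of epithelial cells, ranked by Crct1 UMIs, held 97.4%, 93.8%, 81.7% and 83.2% of them across the Y and EY libraries. For Lce3c, Sprr2d, Sprr2f, Sprr2h and Sprr3 the same measure cannot show concentration. In each of these libraries fewer cells held the gene than the decile contains (Sprr2h in 156 of 2027 cells of EY2), so the share is 100% whatever the spread.

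The same cells tended to hold several of the genes. At 2000 UMIs, 2.41% and 3.996% of epithelial cells in Y and 13.02% and 6.71% in EY held 3 or more of the 10, against 0.145% to 1.27% in the libraries without the YAP transgene. Cnfn was held by 38.4%, 29.4%, 48.9% and 44.5% of the cells that held Crct1 across the Y and EY libraries and by 2.33%, 1.84%, 9.02% and 6.01% of the cells that did not. Sprr2a3 differed from this pattern: it was held by 10.5%, 14.97%, 4.26% and 14.2% of Crct1 cells and by 1.91%, 6.76%, 8.20% and 9.99% of the others, so that in EY1 it was less frequent in Crct1 cells (2 of 47 cells).

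**Figure D5:**
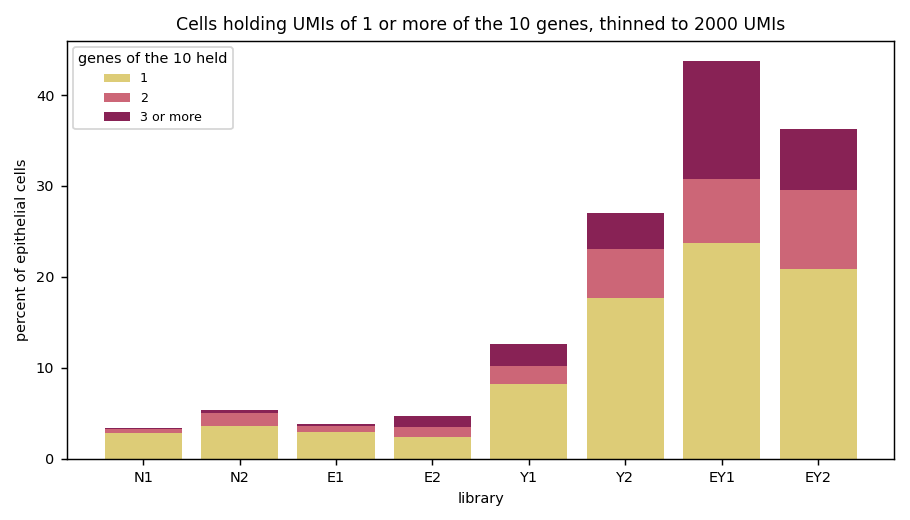
Percent of epithelial cells in each library that held UMIs of 1, 2 or at least 3 of the 10 genes after thinning to 2000 UMIs per cell (stacked bars from 0). The bars reach 3.37% to 5.30% in N and E libraries and 12.6% to 43.8% in Y and EY libraries.

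Across the 8 libraries the profiles of the 10 genes, as log2(CPM + 1), correlated in every pair, from r = 0.12 (Lce3c with Sprr2a3) to r = 0.97 (Sprr2d with Sprr2f), a description over libraries that share depth and group. The 8 genes outside the set whose profile was most like the mean of the 10, among 9718 genes averaging 5 CPM or more in a group, were Phactr4 (r = 0.99), Htra1 (0.99), 4930453N24Rik (0.99), Slc25a24 (0.98), Axl (0.98), Eps8l1 (0.98), Tmem265 (0.98) and Marveld3 (0.98). Htra1, a secreted serine protease, was at 50.7 to 68.1 CPM without and 158 to 226 CPM with the YAP transgene. Axl, a receptor tyrosine kinase known as a YAP target, was at 6.17 to 10.2 and 19.4 to 27.3 CPM.

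The rest of the envelope machinery moved in part. Of 58 other envelope genes found among the features, 30 had enough counts to be tested, and 9 rose and 1 fell with the YAP transgene (edgeR, adjusted p under 0.05 over all 13555 genes, of which 5.26% rose and 3.72% fell). Their median log2 difference was 0.95. The remaining 20 tested genes were not called.

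Among the other SPRR genes, 3 of 5 tested rose. Sprr2j-ps, an annotated pseudogene of the family, was at 0.0401, 0, 0.0544 and 0.0826 CPM across the N and E libraries and at 1.79, 4.78, 5.70 and 6.16 CPM across the Y and EY libraries (log2 difference 6.54 ± 0.51, edgeR adjusted p = 0.00173). Sprr2i was at 0.0401, 0, 0.109 and 0 CPM and at 1.33, 4.27, 3.26 and 10.1 CPM (6.39 ± 0.72, edgeR adjusted p = 0.00316). Both genes had 2 UMIs in all of N, so that their ratio to N in EY was 180 (95% exact interval 49.2 to 1491) and 284 (78.1 to 2355). Sprr2e, outside the naming rule for its low level, had no UMI in any N or E library, 19 and 12 UMIs in Y, and 1 and 188 in EY. Y was at least 13.8-fold higher than a floor of 3 UMIs over the N libraries, and in EY the rise rested on EY2 (5.08 CPM against 0.407 in EY1). Sprr2b rose in EY against N (6.56 ± 1.70, edgeR adjusted p = 0.0381), with 60.3 CPM in EY1 and 6.46 in EY2 against 0.401 and 0.114 in N.

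Of the 20 other LCE genes, 4 were tested and none was called. The 5 Lce3 genes beside Lce3c, singled out after their values were seen, had together 1 UMI in N, of Lce3e. Lce3a was at 0.562 and 13.1 CPM in E, 19.5 and 8.85 in Y, and 1.22 and 2.32 in EY. No Lce1 gene exceeded 2.04 CPM in any library.

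Genes of structural envelope proteins and 1 regulator rose. Ppl, which encodes periplakin, was at 27.2, 21.6, 22.4 and 12.0 CPM without the YAP transgene and at 91.5, 136, 58.3 and 98.3 CPM with it (2.25 ± 0.25, edgeR adjusted p = 0.00316). Sbsn, the suprabasal gene suprabasin, was at 78.8 to 154 CPM without and 259 to 535 CPM with the transgene (1.69 ± 0.21, edgeR adjusted p = 0.0043). Prdm1, a transcription factor known to act in terminal keratinocyte differentiation, was at 0.909 to 3.20 and 6.90 to 10.9 CPM (1.98 ± 0.32, edgeR adjusted p = 0.0118). For Prdm1 the 4 libraries with the YAP transgene all lay above the 4 without, a separation shown by 8.13% of all genes tested.

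Pglyrp3, Evpl (envoplakin) and the cross-linking enzyme Tgm1 also rose and complete the 9. In EY against N, 8 rose and 1 fell (9.31% and 9.5% of all genes), Tgm1 among the rises by 1.26 ± 0.31 (edgeR adjusted p = 0.0332), and in Y against N Sprr2j-ps alone was called (6.44 ± 0.79, edgeR adjusted p = 0.037). The call in Y against N was lost without any 1 of the libraries but Y1, and with free RNA subtracted. The count of 9 in EY against N rested on single libraries, with 0 called without N1 or without EY2, 2 without N2 and 15 without E1 or without E2. Csta1, an epithelial cysteine protease inhibitor, fell by 2.21 on the log2 scale (SE 0.38, edgeR adjusted p = 0.0135), from 45.8 to 78.4 CPM without the YAP transgene to 5.43 to 21.2 CPM with it. Tgm3, a second cross-linking enzyme, was at 27.8 to 87.9 CPM without and 2.73 to 23.6 CPM with the transgene and was not called (-2.29 ± 0.69, edgeR adjusted p = 0.0691).

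Of the genes most often used to mark keratinization, Lor was tested and not called, and Ivl had too few counts to be tested. Lor, encoding loricrin, was at 7.29 and 8.12 CPM in N, 10.5 and 28.6 in E, 20.6 and 20.3 in Y, and 6.52 and 8.56 in EY (log2 difference with the YAP transgene 0.15 ± 0.57, edgeR adjusted p = 0.882). Ivl, encoding involucrin, was under 1 CPM in every library and was not tested. Klf4, at 267 to 532 and 356 to 495 CPM, and Grhl3, at 9.55 to 11.7 and 8.89 to 12.6 CPM, both regulators of the program, overlapped between libraries with and without the transgene. No other envelope gene was called by edgeR for E against N, EY against Y, the E6-E7 average or the interaction, where 9, 6, 5 and 9 of them had an unadjusted p under 0.05 and DESeq2 called 4, 1, 1 and 6.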

How the data were processed

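Libraries were made from sorted viable single cells of the tongue epithelium with 10x Genomics 3′ kits; the labels and the study's methods name different kit versions. The authors deposited raw UMI counts per gene and barcode from Cell Ranger 5.0.0 (mm10), with no normalization. Droplet counts include free RNA, and reads shared by paralogs are lost or uncertain.

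From these counts, cells were kept that had 1000 to 5500 genes, no more than 30000 UMIs and a mitochondrial share of 7% or less, the limits of the study's methods; no doublet caller was run. Cells were selected by the marker rules given above, and their UMIs summed per library, so that libraries, not cells, are the replicates; that each came from separate animals rests on the study's methods, and p-values measure the spread between libraries. CPM is UMIs per 1000000 UMIs of that sum. edgeR 4.0.16 was fitted to all 8 libraries (filterByExpr, TMM, quasi-likelihood F test, 13555 genes) with both transgenes as additive terms, or with a mean per group for pairs and the interaction; Benjamini-Hochberg adjustment ran over all genes. The fit was tested on simulated data. DESeq2 1.42.0 was an alternative. Intervals are 95% exact binomial or Poisson and cover counting error only. Motifs were searched in RefSeq promoter windows of GRCm38.p6, and positions and transcripts came from GENCODE.

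The 10 genes, the list of other envelope genes and the marker lists were chosen with earlier results of these data known. The text names, of the other envelope genes called in a comparison and averaging 5 CPM or more in a group, the 5 that rose most and the 5 that fell most, and the 8 genes most like the 10 by Pearson's r. Sprr2g was not analysed here. Alternatives tried were other limits on cells (a minimum of 200 genes, no upper limits, keratins of at least 2%, no cell with an immune or a gland marker UMI), DESeq2 and its size factors, no filter on low counts, T-cell CPM subtracted (from the 10 and the other envelope genes only), each library left out, a T-cell rule without the keratin limit, thinning to 1000 UMIs and, chosen after seeing the data, basal-keratin cells only.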

Additional observations from a re-analysis of the deposited data

How the results depend on the processing

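With the YAP transgene, 9 of the 10 genes kept the sign of their difference in all 18 alternatives; the exception was Sprr1a in 2. For E against N 4 of 10 did so, for the E6-E7 average 2 of 10, for EY against Y 1 of 10 and for the interaction 3 of 10. Counts of other envelope genes called moved as follows; the cause was not tested except where fewer or more genes entered. For the YAP transgene (10 called) it was 16 without upper limits on cells, 4 without cells holding an immune marker UMI (EY1 then has no cell and was left out of the fit), and 18 with no filter on low counts, where 54 genes are tested. For EY against N (9) these were 19, 1 and 23, and 15 by DESeq2. For Y against N (1) they were 19, 0 and 20, 16 by DESeq2, 2 with keratins of at least 2%, 3 without gland marker cells and 0 with free RNA subtracted. For EY against Y (0) they were 9 without upper limits, 3 with keratins of at least 2%, 1 by DESeq2 and 16 unfiltered. The E6-E7 average, E against N and the interaction (0 each) gave 1, 4 and 6 by DESeq2 and 6, 8 and 9 unfiltered. Leaving out 1 library gave 7 to 11 for the YAP transgene, 0 to 1 for Y against N, 0 to 2 for EY against Y and 0 for E against N, the E6-E7 average and the interaction; EY against N ranged from 0 (without N1 or without EY2) over 2 (without N2) to 15 (without E1 or without E2). In basal-keratin cells only, chosen after seeing the data, 11 were called for the YAP transgene. Of 40 T-cell levels 11 moved by more than the SD without the keratin limit, and of 40 shares of cells 15 did so at 1000 UMIs. EY1, with 170 cells, limits the depth of EY. No paired analysis was possible because the labels carry animal numbers that no groups share; the replicate numbers used here follow deposit order and pair nothing.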
